A study of Mus musculus with 36 samples.

Results

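The Pax genes encode transcription factors that bind DNA through a paired domain. The 8 genes examined here (Pax1, Pax2, Pax3, Pax5, Pax6, Pax7, Pax8 and Pax9) were chosen by name, among 19426 genes listed in either of 2 expression tables. The tables came from mouse embryonic stem cells (ESCs) and from neural stem cells (NSCs) made from them in culture. Pax2, Pax6 and Pax8 were listed in the ESC table, and Pax2, Pax3, Pax5, Pax6 and Pax9 in the NSC table. Pax1 and Pax7 were listed in neither, and are described below by their promoter contacts and neighbouring genes.

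All cells were male and of the V6.5 mixed 129/C57BL/6 background. The wild-type group (WT) carried intact Tet genes. The triple knockout group (TKO) lacked all 3 TET dioxygenases, the enzymes that oxidise 5-methylcytosine in DNA. For each cell type, RNA was taken from 3 lines of WT and 2 of TKO. ESCs were pre-plated for 45 minutes to take out feeder cells and kept on gelatin in serum with LIF for 24 hours, and NSCs were taken on day 6 of culture at passage 1. A TKO group of 2 lines is a small sample of clones, and line codes recur in both cell types, so p-values measure the spread between these cultures. Promoter contacts came from NSCs, with a single promoter capture Hi-C (pcHiC) library for each genotype.

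Pax genes divide the embryo into territories. Pax6 marks radial glia of the forebrain and the eye field, Pax2 and Pax5 act at the midbrain-hindbrain boundary, and Pax3 and Pax7 mark the dorsal neural tube, neural crest and muscle precursors. Pax1 and Pax9 act in sclerotome and pharyngeal pouches, Pax8 in thyroid and, with Pax2, in kidney, and Pax5 also in B cells. Pax proteins share cofactors such as the Groucho family (Tle genes) and work with the Eya and Dach proteins.

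RNA libraries held 41007791 to 49060991 reads over the listed genes. NSC markers were present in NSCs of both genotypes, and their summed normalized count was 381228 to 393023 in the 3 WT libraries and 190904 to 201200 in the 2 TKO libraries. The summed ESC markers were 1004 to 1216 in WT NSCs and 2425 to 4241 in TKO NSCs. Among the targeted genes in NSCs, Tet1 differed by -0.47 (log2, TKO over WT; SE 0.15, limma adjusted p = 0.0320), Tet2 by 0.14 (SE 0.14, adjusted p = 0.459) and Tet3 by -0.73 (SE 0.07, adjusted p = 1.60e-05). Totals over a whole gene do not separate a deleted part from the rest. In bulk RNA, fewer cells of a type and less RNA per cell cannot be told apart.

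Gene spans are given on GRCm38.p6, the RefSeq assembly that mm10 corresponds to. Pax6 spans chr2:105668896-105698410, Pax2 chr19:44746601-44838269 and Pax9 chr12:56691693-56712824. Pax1 spans chr2:147361930-147375049, Pax3 chr1:78101267-78197136 and Pax5 chr4:44524748-44710694, while Pax7 spans chr4:139737059-139833530 and Pax8 chr2:24420551-24475599. The promoters of the 3 genes with the largest differences in NSCs are shown because TET enzymes act on cytosines in CpG pairs. Each line gives 250 bases upstream of an annotated start, 5′ to 3′ on the gene's strand, from RefSeq (GRCm38.p6), with CpG pairs in capitals. Pax6 has a start preceded by chr2:105668646-105668895 and an inner one preceded by chr2:105682213-105682462. For Pax2 the first and the last of 3 starts are given, preceded by chr19:44746351-44746600 and chr19:44756656-44756905. The Pax9 stretch is chr12:56695221-56695470. All of these are on the plus strand.
Pax6 first start: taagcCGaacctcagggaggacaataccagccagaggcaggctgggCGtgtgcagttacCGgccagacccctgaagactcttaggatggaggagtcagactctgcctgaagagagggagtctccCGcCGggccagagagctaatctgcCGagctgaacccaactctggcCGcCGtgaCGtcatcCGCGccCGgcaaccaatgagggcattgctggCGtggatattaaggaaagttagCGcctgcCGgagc
Pax6 inner start: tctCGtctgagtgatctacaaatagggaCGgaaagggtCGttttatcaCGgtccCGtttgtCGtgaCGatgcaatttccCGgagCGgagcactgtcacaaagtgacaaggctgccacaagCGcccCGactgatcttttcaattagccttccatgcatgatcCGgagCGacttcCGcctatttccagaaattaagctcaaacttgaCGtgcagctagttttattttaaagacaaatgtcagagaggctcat
Pax2 first start: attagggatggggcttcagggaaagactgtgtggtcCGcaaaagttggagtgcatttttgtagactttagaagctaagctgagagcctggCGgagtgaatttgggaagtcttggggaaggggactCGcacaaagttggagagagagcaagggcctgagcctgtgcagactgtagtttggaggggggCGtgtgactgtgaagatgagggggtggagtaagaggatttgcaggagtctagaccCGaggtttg
Pax2 last start: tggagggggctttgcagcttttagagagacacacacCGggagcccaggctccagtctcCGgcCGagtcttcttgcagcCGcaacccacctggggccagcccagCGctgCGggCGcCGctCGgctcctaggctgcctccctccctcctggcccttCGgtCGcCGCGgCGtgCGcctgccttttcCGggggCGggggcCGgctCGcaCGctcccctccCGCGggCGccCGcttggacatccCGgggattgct
Pax9: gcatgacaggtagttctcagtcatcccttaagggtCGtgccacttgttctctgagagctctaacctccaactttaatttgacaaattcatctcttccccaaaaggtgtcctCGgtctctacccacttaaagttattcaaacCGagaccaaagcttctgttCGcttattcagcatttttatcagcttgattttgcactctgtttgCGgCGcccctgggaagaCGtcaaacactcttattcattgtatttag

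These stretches held 15 CpG pairs at each Pax6 start, 5 at the first and 25 at the last Pax2 start, and 7 at Pax9. Over windows of 300 bases, reaching 50 bases past the start, the 2 Pax6 windows held 18 and 16 CpG pairs, the 3 Pax2 windows 7, 23 and 30, and the Pax9 window 11. The median of 32851 RefSeq promoter windows was 7, and 94.6% of them held at least 1 CpG. The remaining matched windows held 13 (Pax1), 23 (Pax5), 17 (Pax7) and 7 (Pax8). Pax2 and Pax6, lower in TKO NSCs, and Pax9, higher there, each had at least 1 window above the median. Of the 8 genes, 7 matched the promoter table. The letters say nothing about methylation in these cells, which was not analysed here.

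In ESCs, none of the 3 listed Pax genes passed the test between genotypes. Here "higher" and "lower" counts are of genes with a limma adjusted p under 0.05. Values are the authors' normalized counts, and fold changes are differences of log2(normalized count + 1), TKO minus WT. Pax6 was at 89.7, 96.5 and 84.6 in the 3 WT libraries and at 94.3 and 99.0 in the 2 TKO libraries. The groups overlapped, and the difference was 0.10 (SE 0.33, 95% interval -0.60 to 0.80, limma adjusted p = 0.889).

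Pax8, a thyroid and kidney regulator, was at 55.3, 62.3 and 67.4 in WT ESCs and at 94.3 and 58.6 in TKO ESCs. One TKO library lay above all WT libraries and the other among them (difference 0.27, SE 0.40, 95% interval -0.58 to 1.12, limma adjusted p = 0.722). Pax2 rested on few reads in ESCs, with 26, 20 and 0 in the WT libraries against 6 and 4 in TKO. Most low read numbers in every library were even, so a read may be 1 end of a pair, and the independent fragments behind these numbers may be fewer. The normalized counts of Pax2 were 24.8, 20.1 and 0 against 6.29 and 3.84 (difference -0.46, SE 1.45, 95% interval -3.53 to 2.61, limma adjusted p = 0.883). With 14.3% of all tested genes called in ESCs (7.29% higher and 7.02% lower), 0 of 3 Pax genes were called by limma, 0 had an unadjusted p under 0.05, and edgeR and DESeq2 each called 0 (DESeq2 gave no adjusted p for Pax2). The interval of Pax2 includes changes of several log2 units in either direction.

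In NSCs, 4 of the 5 listed Pax genes differed between genotypes. Pax2, Pax3 and Pax6 were lower in TKO and Pax9 was higher, against a background of 37.7% of all 17744 tested genes called (19.5% lower and 18.2% higher). The median log2 fold change of the 5 was -1.01, beside 0.01 over all genes. The WT and TKO libraries did not overlap for these 4 genes, as they did not for 59.9% of all tested genes, so the absence of overlap alone does not set them apart.

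Pax2, which patterns the midbrain-hindbrain boundary, optic stalk and kidney, was at 1677, 1582 and 1337 in WT NSCs and at 153 and 152 in TKO NSCs. Both TKO libraries were far below the lowest WT library and close to each other. The ratio of means was 10.03 (WT over TKO), and the difference was -3.31 (SE 0.14, limma adjusted p = 3.80e-08).

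Pax6, the radial glia and eye regulator, was at 2825, 2575 and 2840 in WT NSCs and at 234 and 78.1 in TKO NSCs. The TKO lines were apart from each other, and both were below every WT library. The ratio of means was 17.6 (WT over TKO), and the difference of -4.33 (SE 0.33, limma adjusted p = 2.02e-06) was -3.54 without TKO replicate 2 or -5.12 without TKO replicate 1. Pax2 and Pax6 therefore differed in how alike their TKO lines were.

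Pax3, a dorsal neural tube and crest factor, was at 145, 130 and 221 in WT NSCs and at 103 and 61.5 in TKO NSCs. The highest TKO library came near the lowest WT library without reaching it. The difference was -1.01 (SE 0.34, limma adjusted p = 0.0378), and the call was lost without WT replicate 1 (adjusted p = 0.0786), WT replicate 3 (0.151) or TKO replicate 2, where the difference was -0.64 (adjusted p = 0.247).

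Pax9, which acts in sclerotome and pharyngeal endoderm, was at 55.8, 73.6 and 31.1 in WT NSCs and at 139 and 415 in TKO NSCs. Both TKO libraries were above all WT libraries, and TKO replicate 2 was the highest. The mean was 5.17-fold higher (difference 2.23, SE 0.49, 95% interval 1.15 to 3.31, limma adjusted p = 0.00410). Without TKO replicate 2 the difference was 1.44 and the call was lost (adjusted p = 0.0836).

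Pax5, a B cell and midbrain-hindbrain factor, was at 49.6, 32.5 and 93.2 in WT NSCs and at 19.3 and 46.8 in TKO NSCs. One TKO library lay below all WT libraries and the other among them. The difference of -0.80 (SE 0.57, 95% interval -2.06 to 0.46, limma adjusted p = 0.307) did not pass the test.

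**Figure D1:**
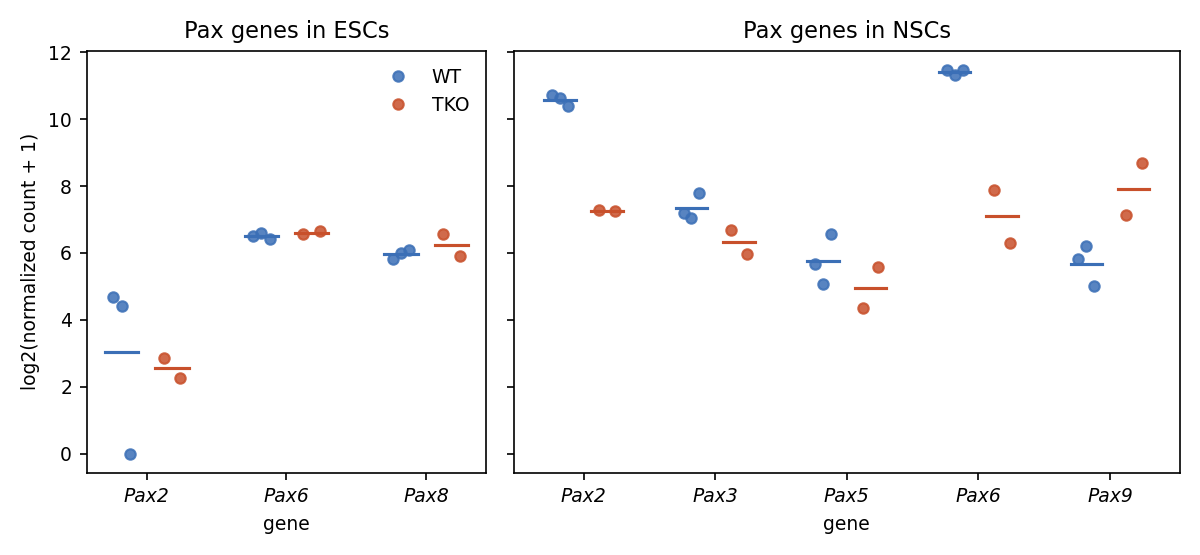
Each point is 1 RNA library and each bar the group mean on the log2(normalized count + 1) axis, for the Pax genes listed in the ESC table (left) and the NSC table (right), with WT in blue and TKO in orange. The 2 tables were normalized separately. In NSCs the TKO points of Pax2, Pax3 and Pax6 lie below all WT points and those of Pax9 above them.

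**Figure D2:**
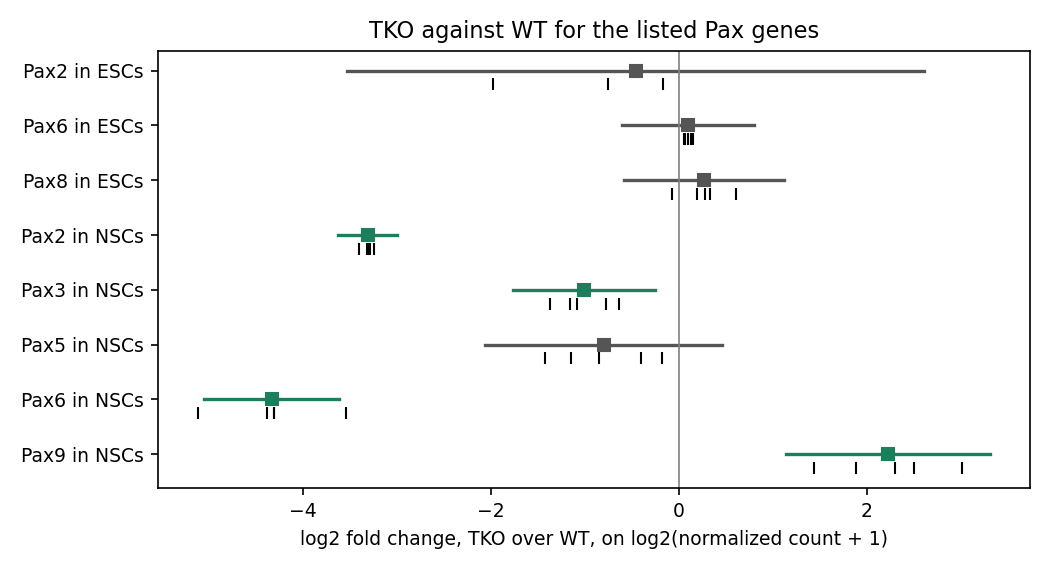
Squares are log2 fold changes of TKO over WT and lines their 95% intervals, in green where the limma adjusted p was under 0.05 and grey otherwise. Black ticks give the value with 1 library left out. Pax6 in NSCs moves between -5.12 and -3.54 and Pax9 between 1.44 and 3.02.

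Only Pax2 and Pax6 were listed in both tables, so levels across cell types could be set side by side for these genes. For this, 1 common scale was fitted to the reads recovered from the 10 libraries. The level of Pax6 was 105, 112 and 98.1 in WT ESCs, 110 and 114 in TKO ESCs, 2412, 2194 and 2420 in WT NSCs, and 198 and 65.7 in TKO NSCs. WT NSCs were above the other groups, whose libraries overlapped in level.

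In WT, Pax6 was higher in NSCs than in ESCs by 4.46 (log2, SE 0.30, limma adjusted p = 3.40e-09), in a comparison that called 75.3% of genes (37.8% higher and 37.5% lower in NSCs). In TKO, the difference between cell types was 0.02 (SE 0.37, 95% interval -0.76 to 0.81, adjusted p = 0.958), where 70.2% of genes were called (35.4% higher and 34.8% lower). The TKO value depended on the line, since 1 NSC library was above and the other below the TKO ESCs. It was 0.81 without NSC TKO replicate 2 (adjusted p = 0.0115) and -0.77 without NSC TKO replicate 1 (adjusted p = 0.0210).

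The effect of TKO on Pax6 was tested for a difference between cell types by an interaction term. The NSC effect was lower than the ESC effect by -4.43 (SE 0.47, limma adjusted p = 2.14e-05), where 20.7% of 15381 genes were called (10.9% with a positive and 9.80% with a negative difference). Leaving out any 1 library gave -5.22 to -3.64.

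The jointly scaled level of Pax2 was 29.1, 23.4 and 0 in WT ESCs, 7.35 and 4.45 in TKO ESCs, 1432, 1348 and 1140 in WT NSCs, and 130 and 128 in TKO NSCs. NSCs of either genotype were above all ESC libraries, with WT NSCs highest and the 2 ESC groups overlapping. Pax2 was higher in NSCs than in ESCs by 7.17 in WT (SE 0.92, limma adjusted p = 4.53e-06) and by 4.27 in TKO (SE 1.12, adjusted p = 0.00343). The interaction was -2.85 (SE 1.39, 95% interval -5.84 to 0.14) and did not pass the test (limma adjusted p = 0.174), while with a pseudocount of 5 it was -2.64 and did (adjusted p = 0.0260). For Pax2 both TKO NSC libraries were thus above all ESC libraries, and for Pax6 only 1 of 2 was.

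The genes whose profile over the 10 libraries was most like that of Pax6 were Nhsl1 (Pearson r = 0.984), the secreted chaperone gene Clu (0.983) and the receptor gene Gprc5b (0.982), among 13570 genes. All were lower in TKO NSCs, by log2 differences of -1.61, -3.91 and -2.05. For Pax2 the most alike were the Hippo pathway factor Tead1 (r = 0.983), the glycogen branching enzyme gene Gbe1 (0.982) and Mtmr11 (0.975), at -0.48, -0.50 and -0.74. The libraries fall into the same 4 groups for every gene, so these coefficients are descriptions without a test. The genes were picked for likeness over these same libraries, so their direction in TKO NSCs is not a separate result.

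Genes linked to Pax6 in neural progenitors went in both directions in NSCs. Of 16 such genes tested, 3 were lower and 5 higher in TKO, with a median log2 fold change of -0.07 beside 0.01 over all genes. Over all genes, 19.5% were lower and 18.2% higher, which is also the background for the NSC lists below. Neurog2, a proneural target of Pax6, was at 513, 388 and 577 in the WT libraries against 14.7 and 5.86 in TKO NSCs (difference -5.55, SE 0.39, limma adjusted p = 1.18e-06). Every WT library was far above both TKO libraries.

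Fabp7, a radial glia lipid carrier, was lower by 1.81 (SE 0.19) and Sox2, a progenitor factor, was lower by 1.02 (SE 0.10). Fabp7 and Sox2 were also counted among the NSC markers. Among those higher were Lhx2 (1.06, SE 0.17), a forebrain patterning factor, and Meis2 (1.33, SE 0.19), a homeodomain partner of Pax6. Mab21l2 was at 1.67 (SE 0.50, limma adjusted p = 0.0220), a call lost in 3 alternatives. Median differences by chromosome reached 0.53 on chromosome 11 in NSCs. With each chromosome centred on its median, 4 of the 16 genes were higher, and Meis1 went from 0.30 to -0.23. The number higher fell to 2 without TKO replicate 1, and to 3 without TKO replicate 2 or WT replicate 2. Of 11 genes of Pax6 in eye and pancreas, 3 were higher and 3 lower, and 5 were lower without TKO replicate 1. Mitf, the regulator of pigment cells, was at 55.8, 34.6 and 46.6 in the WT libraries against 582 and 739 in TKO (difference 3.84, SE 0.30, limma adjusted p = 2.45e-06), with no overlap.

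Genes of the midbrain-hindbrain boundary, where Pax2 and Pax5 act, were lower or did not pass. Of 11 tested, 8 were lower and 0 higher in TKO NSCs, with a median of -0.91, beside 19.5% lower and 18.2% higher of all genes. The number lower fell to 6 without WT replicate 2 or WT replicate 3, and the median was -0.75 without TKO replicate 1. Fgf17, a boundary signal, was at 593, 392 and 530 in the WT libraries against 68.9 and 31.2 in TKO (difference -3.39, SE 0.33, limma adjusted p = 1.24e-05). Fgf18 was lower by 2.40 (SE 0.17), the forebrain and midbrain factor Otx2 by 1.55 (SE 0.07), and the FGF feedback inhibitor Spry1 was lower too (limma adjusted p = 3.60e-06). En1 and En2, homeobox genes of the boundary region, were at -0.25 (SE 0.25) and -0.18 (SE 0.28) and did not pass.

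Among 15 genes setting dorsal and ventral domains of the neural tube, where Pax3, Pax6 and Pax7 are boundaries, 9 were lower and 2 higher. Their median was -1.36, and over all genes 19.5% were lower and 18.2% higher. Olig2, a motor neuron progenitor factor, was at 814, 1115 and 1464 in the WT libraries against 45.9 and 17.6 in TKO (difference -5.22, SE 0.36, limma adjusted p = 1.08e-06). Msx1, a dorsal midline factor, was at 1076, 1232 and 907 against 31.2 and 39.0 (difference -4.89, SE 0.21). Dorsal and ventral genes were thus both among those lower. The count lower was 6 without WT replicate 2, WT replicate 3 or TKO replicate 1. Irx3 (1.63, SE 0.20) and Nkx6-1 (1.02, SE 0.22) were higher, the second only with TKO replicate 2 included (adjusted p = 0.0594 without it).

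Six2, a kidney and craniofacial progenitor factor, was at 256, 254 and 223 in the WT libraries against 4475 and 2013 in TKO NSCs (difference 3.61, SE 0.26, limma adjusted p = 1.39e-06). Both TKO libraries were above all WT libraries. Eya2 was higher by 2.35 (SE 0.46) and Dach1 lower by 1.45 (SE 0.15). Of 11 Pax cofactors, 3 were higher and 2 lower, with a median of 0.02, beside 18.2% higher and 19.5% lower of all genes. These were Tle2 (1.35, SE 0.19), Tle1 (0.97, SE 0.08) and Tle6 (0.97, SE 0.31, lost in 3 alternatives), against Tle4 (-0.44, SE 0.09) and Wwtr1 (-0.42, SE 0.07). Paxip1, which links Pax proteins to histone methylation, was at 0.02 (SE 0.09) and did not pass.

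Markers of the tissues where other Pax genes act were counted as well, beside 37.7% of all genes called, and their part in the Pax results was not tested. Somite and muscle markers, the territory of Pax1, Pax3, Pax7 and Pax9, were higher in 6 and lower in 2 of 9 (median 3.42). Their summed normalized count was 1192 to 1505 in WT and 1674 to 1964 in TKO NSCs, with Myf5 not listed. The number higher was 5 without WT replicate 1 or WT replicate 3. Without TKO replicate 1 the median was 2.12, over 8 genes. Myod1, among those higher, was at 0 in a library. Meox1, a somite factor, was at 22.7, 25.98 and 15.5 against 498 and 334 (difference 4.22, SE 0.39, limma adjusted p = 9.05e-06). Meox2 was higher by 4.04 (SE 0.46), while Uncx was lower by 3.13 (SE 0.31) and Tbx18 by 2.04 (SE 0.19).

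Neural crest markers were higher in 5 and lower in 0 of 7 (median 1.70), summing to 5127 to 5715 in WT and 13596 to 14460 in TKO, with Sox10 not listed. The nerve growth factor receptor gene Ngfr was higher by 3.60 (SE 0.31) and Ets1 by 2.03 (SE 0.10). Tfap2a (0.21, limma adjusted p = 0.725) and Tfap2b (-0.45, adjusted p = 0.294) did not pass. Endoderm and thyroid markers were higher in 4 and lower in 0 of 10, a share near the 37.7% of all genes (median 1.27). They summed to 4029 to 5777 against 7692 to 12488. Of this sum, Nkx2-1 alone held a mean of 405 in WT and 4256 in TKO, and 6 of the 10 genes did not pass. Kidney and otic markers were higher in 5 and lower in 1 of 8 (median 0.98), summing to 5392 to 5826 against 6019 to 6899. The number higher there was 3 without WT replicate 1 or TKO replicate 1. Of 3 B cell markers tested, only Ebf1 passed (3.05, SE 0.18), and Cd79b was not listed. NSC markers were lower in 8 and higher in 0 of 9 (median -1.09), ESC markers higher in 2 and lower in 0 of 6 (1.19), and neuron markers higher in 2 and lower in 3 of 9 (-0.02).

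**Figure D3:**
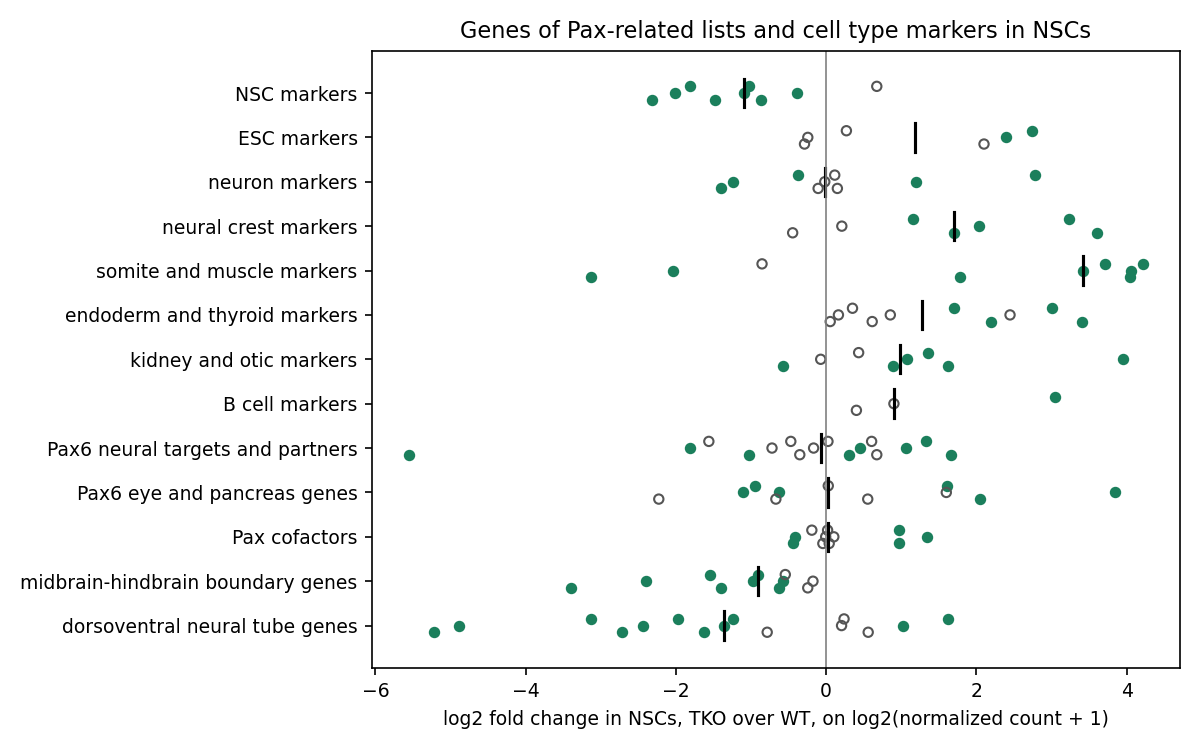
Each point is a tested gene in NSCs, placed by its log2 fold change of TKO over WT, filled green where the limma adjusted p was under 0.05 and open otherwise; black bars are list medians. Medians run from -1.36 for dorsoventral neural tube genes to 3.42 for somite and muscle markers.

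In ESCs the lists' counts were read against 14.3% of all genes called (7.29% higher and 7.02% lower). Midbrain-hindbrain genes were lower in 3 and higher in 0 of 10, and dorsoventral genes lower in 2 and higher in 0 of 12. Pax cofactors were higher in 3 and lower in 0 of 11. Some of these calls were near the threshold, such as Tle4 (limma adjusted p = 0.0489). Fgf8, a midbrain-hindbrain gene, was not (difference -2.66, limma adjusted p = 1.2e-05) and kept its call in all 17 alternatives. Without WT replicate 3, only 1 cofactor was higher and only 1 midbrain-hindbrain gene lower. Of the Pax6 lists, 1 gene was higher and 1 lower of 11 neural ones, and 0 of 7 passed in eye and pancreas. ESC markers were higher in 3 and lower in 0 of 7, and NSC markers higher in 2 and lower in 1 of 9. Neuron markers were higher in 0 and lower in 3 of 8. Median differences by chromosome reached -0.41 on chromosome 8 and 0.39 on chromosome 11 in ESCs. With each chromosome centred on its median, the neuron marker Tubb3 was no longer called (limma adjusted p = 0.208). Endoderm and thyroid markers were lower in 1 of 7 and kidney and otic markers in 1 of 6, with 0 higher. In the neural crest (6), somite and muscle (4) and B cell (5) lists, 0 passed. Whether the lists' medians differed between cell types was not tested.

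Promoter contacts of the Pax genes were read from the authors' loop lists in NSCs. A loop joins a captured promoter fragment (median length 5130 bp) to a partner fragment, with a score of at least 5 given by the authors. A loop was assigned to a Pax gene where either end held an annotated start of that gene. The WT list held 22 such loops and the TKO list 25, with 5 in both, from lists of 51990 and 51122 loops of which 14685 were in both. With 1 library per genotype there is no test. A loop missing from a list may lie just under its score limit, and the cutoff of 7 used as a stricter limit left 8, 9 and 2.

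Pax9 had 5 loops in WT and 18 in TKO, with 3 in both. That was at least 2-fold more in TKO, as were 25.8% of 23927 genes with a loop. Its 18 loops placed it at the 97.2 percentile of genes in the TKO list, and its 5 at the 68.6 percentile in the WT list. The captured fragment (chr12:56689219-56694358, mm10) held the first annotated start of Pax9, and the promoter stretch printed above lies just beyond it.

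Of the TKO partners of Pax9, 13 of 18 lay over Slc25a21, a mitochondrial carrier gene that overlaps Pax9 in the annotation, as did 4 of 5 in WT. The shared loop 291 kb away had a score of 6.75 in WT and 14.88 in TKO. The shared loop to the starts of Mipol1 and Prps1l3, 540.5 kb away, scored 5.53 in WT and 13.41 in TKO. The shared loop to the Slc25a21 start, 503.8 kb away, went the other way when scored from the Slc25a21 side, at 19.5 in WT and 16.11 in TKO. A loop to the fragment with the Nkx2-1 start, 155.7 kb on the other side, was in the TKO list alone (score 7.73).

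Pax6 had 4 loops in WT and 2 in TKO, with 1 in both. The shared loop reached the starts of Elp4 and Immp1l, 234.2 kb away, and scored 10.53 in WT and 5.81 in TKO. Elp4 is known for holding distant Pax6 enhancers in its introns. Loops to the bodies of Dnajc24 (323.9 kb, score 9.41) and Rcn1 (276.4 kb on the other side, score 5.05) were in the WT list alone, as was one 408.4 kb away (6.09). A loop to the body of Dcdc5, 418.9 kb away, was in the TKO list alone (6.2). The fragment (chr2:105665908-105670936, mm10) held the first start of Pax6 and not the inner one.

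**Figure D4:**
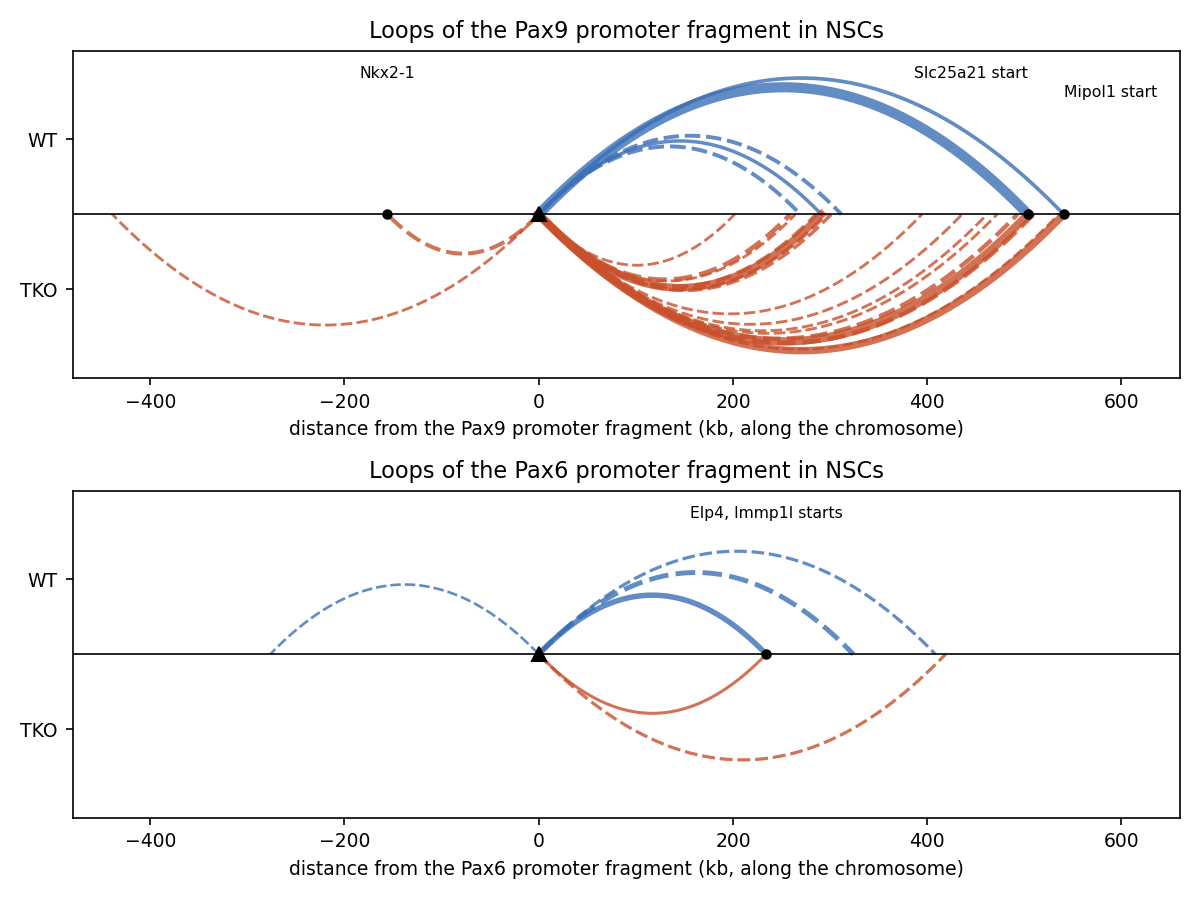
Arcs join the promoter fragment of Pax9 (top) or Pax6 (bottom), marked by a triangle at 0 kb, to its partners, with WT loops in blue above the line and TKO loops in orange below. Solid arcs are in both lists and dashed arcs in 1, line width grows with the authors' score, arc height has no unit, and dots mark the named gene starts. Pax9 has 5 arcs in WT and 18 in TKO, and Pax6 has 4 and 2.

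The other Pax genes had few loops. Pax1 had 3 in WT and 1 in TKO, with 0 in both, and a WT loop reached the start of the endoderm factor Foxa2, 684.5 kb away (score 10.58). Pax3, whose captured fragment held the higher-coordinate end of its span, had 1 and 3, and shared 1 that ended over Farsb and Sgpp2, 222.2 kb away (6.76 in WT and 5.23 in TKO). Pax5 had 1 in each with 0 shared, Pax7 had 2 and 0, and Pax8 had 4 and 0. Pax2 starts appeared only as partners, in 2 WT loops from a fragment within Slf2 (181.6 and 171 kb, scores 6.28 and 5.51) and 0 TKO loops. A gene with at least 2-fold fewer loops in TKO was common, at 30.0% of all genes with a loop, and Pax1, Pax2, Pax6, Pax7 and Pax8 were among these. Pax3 had 3 loops in TKO against 1 in WT, and less RNA in TKO. Whether loop counts and RNA are linked was not tested.

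Genes near the Pax genes were examined because loop partners lie there. Of 69 tested genes within 500 kb of any Pax gene, 34 (49.3%) differed between genotypes in NSCs, 16 higher and 18 lower in TKO, beside 37.7% of all genes. Neighbours share a locus and are not independent of each other.

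Around Pax2, 13 of 20 genes differed, 8 lower and 5 higher. Wnt8b, a forebrain Wnt ligand gene 232.3 kb away, was at 5949, 4578 and 5067 in the WT libraries against 31.2 and 55.6 in TKO (difference -6.92, SE 0.21, limma adjusted p = 2.88e-09). Sec31b, a coat protein gene between them, was at 1012, 694 and 895 against 55.1 and 70.3 (difference -3.76, SE 0.22). Both TKO libraries were far below WT for both genes. Slf2, which holds the partner of the WT loops of Pax2, fell from 8295 to 3401 (difference -1.28, SE 0.07). 1700039E22Rik lies within the Pax2 span and was at -3.55 (SE 0.97, limma adjusted p = 0.0139), and without stranded counts its reads cannot be told apart from those of Pax2. Its call was lost without WT replicate 1 or WT replicate 3, with adjusted p up to 0.0556. Farther out, Kazald1 (1.86, SE 0.27) and Pkd2l1 (2.87, SE 0.55) were higher.

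Around Pax9, 5 of 7 genes differed. Nkx2-1, the thyroid, lung and ventral forebrain factor 154.8 kb from Pax9, was at 347, 563 and 305 in the WT libraries against 3249 and 5263 in TKO NSCs (difference 3.40, SE 0.25, limma adjusted p = 1.58e-06). The TKO libraries were both above all WT libraries, and TKO replicate 2 was the highest, as for Pax9. Sfta3-ps was higher by 2.00 (SE 0.36), Mbip by 0.73 (SE 0.11) and Gm26973 by 3.02 (SE 0.79), the last not without TKO replicate 2 (adjusted p = 0.131). Slc25a21 was lower, from 149, 181 and 95.2 to 45.9 and 65.4 (difference -1.30, SE 0.37, limma adjusted p = 0.0154, lost in 3 alternatives with adjusted p up to 0.0893). Nkx2-9 was at 0.24 (SE 0.39) and did not pass. Slc25a21 and Pax9 overlap, and no source used here gives how strand was used in counting.

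Around Pax6, 3 of 5 genes differed. Elp4 overlaps Pax6 in the annotation, and without stranded counts the reads of the shared stretch cannot be told apart. Elp4 was lower by 0.52 (SE 0.12, limma adjusted p = 0.00602, and 0.0625 without TKO replicate 1) and Dnajc24 by 0.65 (SE 0.14, adjusted p = 0.00425). Immp1l and Rcn1, which also lie at loop partners, were at -0.07 (SE 0.11) and -0.13 (SE 0.06) and did not pass. Wt1, a kidney factor 495.3 kb away, was at 6.20, 21.7 and 0 against 111 and 62.5 (difference 3.95, SE 1.12, limma adjusted p = 0.0162), lost without either TKO replicate (adjusted p up to 0.112). Elp4, Dnajc24, Immp1l and Rcn1 thus each differed by less than 1 on the log2 scale.

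Around Pax1, 3 of 5 genes were lower, among them Kiz (-1.80, SE 0.09) and the ventral neural tube factor Nkx2-2 (-1.24, SE 0.33, lost in 6 alternatives). Around Pax7, 5 of 9 differed, with Klhdc7a lower by 2.97 (SE 0.16). The counts were 2 of 7 at Pax8, 3 of 12 at Pax5 and 0 of 4 at Pax3.

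**Figure D5:**
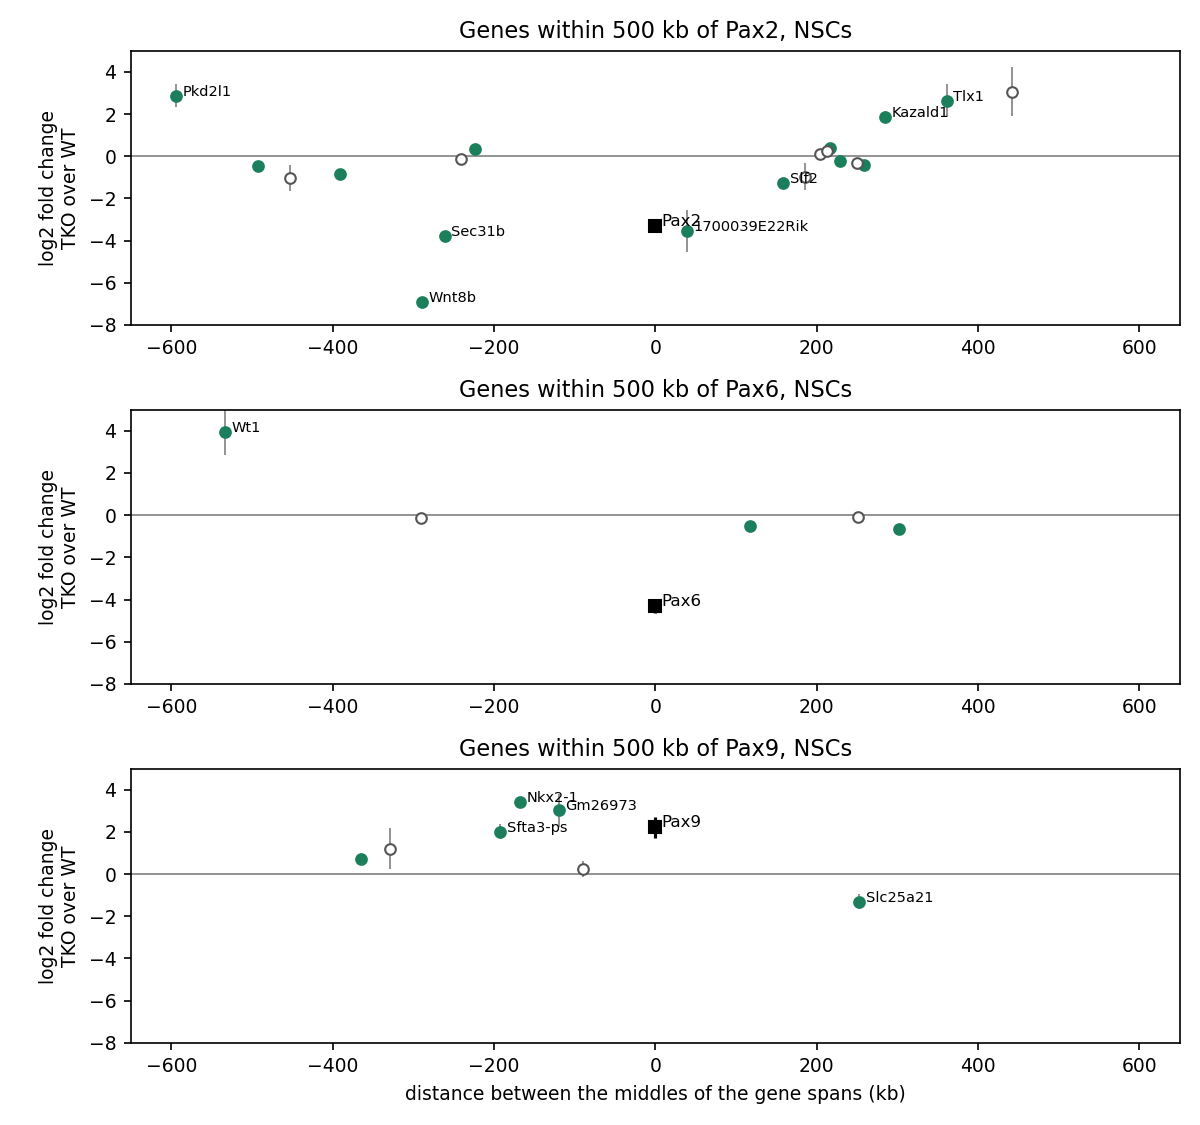
Log2 fold changes of TKO over WT in NSCs with standard errors for genes within 500 kb of Pax2, Pax6 and Pax9, against the distance between the middles of the gene spans. The square is the Pax gene, filled points had a limma adjusted p under 0.05, and named points are called genes of at least 1.2 in size. Wnt8b and Sec31b lie below Pax2 or near it, and Nkx2-1 lies above Pax9.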

How the data were processed

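The members and gene lists were chosen with earlier results of these data known. RNA-seq values are signal values: counts that the authors divided by size factors and deposited in 1 table per cell type. Reads were trimmed with Trim Galore 0.6.5, aligned to mm10 with STAR 2.7.3a, counted with featureCounts and scaled with DESeq2 1.40.2, per the submitters' processing notes. Dividing each library by its smallest step gave whole reads for 100% of values (tolerance 1e-06). Of low read numbers, 75.2% to 82.7% were even. The lowest total of a listed gene was 51 reads in each table. Loop positions and scores were deposited by the authors for pcHiC (mm10); no source used here names the caller.

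Each table was tested with limma 3.58.1 (trend, R 4.3.3) on log2(value + 1). Genes needed a table mean of 10 or more. Tests were two-sided, p-values were adjusted by Benjamini-Hochberg over the whole table, and the threshold was 0.05. Cell types were compared after joint median-of-ratios scaling of recovered reads. The test was tried on simulated data. Alternatives were pseudocounts of 0.5 and 5, a minimum mean of 50 or no filter, other scalings, edgeR 4.0.16 and DESeq2 1.42.0 on recovered reads, robust limma, a replicate block and leaving out each library. The text names all 8 Pax genes, up to 4 genes per list with the largest change, and the 3 genes most alike in profile. Called neighbours within 500 kb and genes at loop partners are named only in part. Further list members, such as Sox2, Lhx2, Meis2, En1, En2, Irx3, Nkx6-1, Wwtr1, Paxip1, Uncx and Tbx18, were chosen after their values were seen. The results of 1 gene list as a whole are not reported here.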

Additional observations from a re-analysis of the deposited data

Results flagged for a closer look

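Pax6 was singled out because the difference between TKO and WT was not the same in the 2 cell types. The interaction term was -4.43 on the log2 scale (NSC effect minus ESC effect, SE 0.47, limma adjusted p = 2.14e-05), from an effect of -4.33 in NSCs and 0.10 in ESCs. All 3 WT NSC libraries were above both TKO NSC libraries, while the ESC libraries overlapped. The summed NSC markers were lower and the summed neural crest markers higher in TKO NSCs, and their part was not tested.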

How the results depend on the processing

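On recovered reads, edgeR called 2384 genes in ESCs and 6569 in NSCs, beside 2437 and 6698 by limma. Pax2 and Pax6 in NSCs kept direction and call under all 17 alternatives. The number of Pax genes called in NSCs was 4, 2 when all 10 libraries were fitted together (2 listed in both tables), and 2 to 4 when 1 library was left out. In ESCs it was 0 under each setting; Pax2 there had a value in 13 of the 17 alternatives. Pax8 in ESCs was -0.068 without TKO replicate 1, within a range of -0.068 to 0.61. Leaving out 1 library gave 1108 to 2302 called genes in ESCs and 2092 to 3308 for the interaction. For the interaction, 2 Pax genes were called with a pseudocount of 5 and 1 otherwise. Pax6 between cell types in TKO was -0.040 with each chromosome centred, -0.0026 without ESC TKO replicate 1 and -0.77 to 0.81 over the libraries left out, with 1 to 2 Pax genes called. Of the loops, 8 (WT), 9 (TKO) and 2 (both) had a score of at least 7.

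Replicate numbers do not pair WT with TKO lines (correlations of same-numbered libraries were near 0), and WT replicate 3 has no TKO number. With the replicate block, Pax3 in NSCs was -0.78 (limma adjusted p = 0.105) and 3 Pax genes were called. Pax2 in ESCs rests on 0 to 26 reads per library, which limits its comparison.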
